A study of Mus musculus with 24 samples.

Results

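The miR-99/100 and miR-125 families are represented in mouse serum EVs (extracellular vesicles) by 5 mature miRNAs: mmu-miR-99a-5p, mmu-miR-99b-5p, mmu-miR-100-5p, mmu-miR-125a-5p and mmu-miR-125b-5p, written below without the species prefix. They were taken by name from the deposited table of read counts and are 5 of its 1966 mature miRNAs. Small RNA was sequenced in 1 library per mouse from male wild type C57BL/6 mice aged 14 to 16 weeks, with 6 mice in each of 4 groups. Control mice received saline under the skin, and the S6h, S24h and S72h mice had serum taken 6, 24 or 72 h after surgery, in which the tibia was fractured openly and held by a pin in the bone marrow cavity, under isoflurane with buprenorphine. The S24h and S72h mice were also given analgesia every day. The Control libraries came from the controls that accompanied the S6h mice. The controls that accompanied the later groups were not analysed here. The paper assigned each group controls from the same batch of animals and reports no statistical difference between its control groups. Any difference between batches cannot be told apart from surgery where S24h or S72h is compared with Control. Fracture, anesthesia and analgesia came together in every surgery group. EVs were precipitated from serum with a kit, and serum miRNAs outside EVs that precipitate with them would be counted as well. In such a mixture, fewer vesicles from a cell type and less of a miRNA per vesicle cannot be told apart.

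In animals the genes of these families are grouped with let-7 genes on shared primary transcripts, an arrangement that is found from insects to mammals. The Argonaute protein carries the mature miRNA and finds target mRNAs mainly through the seed, a short stretch near the 5′ end. Known targets of miR-99 and miR-100 include the growth regulator mTOR and the IGF1 receptor. The miR-125 family, the vertebrate relatives of lin-4, is known for its roles in blood stem cells and in the tuning of inflammatory signaling, including repression of TNF by miR-125b.

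The mature sequences explain the grouping and show how little separates some members in sequencing. They are from RefSeq for GRCm38.p6, where all 5 members were found, and the seed (bases 2 to 8) is in capitals.

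miR-99a-5p: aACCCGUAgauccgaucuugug
miR-100-5p: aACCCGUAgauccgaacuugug
miR-99b-5p: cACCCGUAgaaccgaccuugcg
miR-125a-5p: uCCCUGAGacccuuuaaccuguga
miR-125b-5p: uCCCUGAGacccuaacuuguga
miR-351-5p: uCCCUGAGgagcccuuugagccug

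Counted from 1 at the 5′ end, miR-99a-5p and miR-100-5p (22 bases each) differ by 1 substitution, U16A. miR-99b-5p differs from miR-99a-5p by A1C, U11A, U16C and U21C. miR-125a-5p and miR-125b-5p share their first 13 bases and differ in length, with 24 and 22 bases. The authors kept reads of 20 to 24 bases, so that miR-125a-5p lies at the upper limit of this window and any longer form of it was not counted. miR-351-5p carries the miR-125 seed but belongs to another gene and is shown for comparison. The same seed also occurs in miR-6367 and miR-6394, which had 0 counts in the 24 libraries.

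The genes of the members lie in 3 clusters, all on the plus strand, in the Gencode annotation of GRCm38. On chromosome 9, Mir100 (chr9:41531425-41531504), Mirlet7a-2 (chr9:41536716-41536811) and Mir125b-1 (chr9:41581926-41582002) span 50578 bp within introns of the noncoding transcript 3110039I08Rik. On chromosome 16, Mir99a (chr16:77598936-77599000), Mirlet7c-1 (chr16:77599657-77599750) and Mir125b-2 (chr16:77646273-77646343) span 47408 bp within introns of the noncoding host gene Mir99ahg. On chromosome 17, Mir99b (chr17:17830188-17830257), Mirlet7e (chr17:17830352-17830444) and Mir125a (chr17:17830812-17830879) span only 692 bp within the protein coding gene Spaca6, where the Mir99b and Mirlet7e hairpins are intronic and the Mir125a hairpin overlaps an annotated exon. The table has 1 entry for miR-125b-5p, so that reads from the chromosome 9 and chromosome 16 copies cannot be told apart. How reads that fit several places were counted is not given in the sources used here.

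Total counts per library ranged from 63956 to 471801, with medians of 117578.5 in Control, 177467.5 in S6h, 75030 in S24h and 94427.5 in S72h. A count of 0 allows up to 3 counts, or 6.36 to 46.9 CPM (counts scaled by a library's total) between the deepest and the shallowest library, which covers counting error only. All 5 members had counts in all 24 libraries. Together they held 1.18 to 2.98% of a library's counts (median 1.98%). The red cell list held a median of 17.7% of counts in Control, 15.4% in S6h, 8.96% in S24h and 8.99% in S72h, and the platelet list 10.1 to 11.1%. Libraries differed widely in muscle and liver miRNAs, which held up to 26.5 and 30.6% of a library's counts. The brain list held group medians of 1.06 to 1.38%, and 4 of its 5 miRNAs had a count somewhere in the 24 libraries. Its defining miR-124-3p was at 0 in 5 of 6 Control, 3 of 6 S6h and all S24h and S72h libraries. In S6h replicate 4 and S72h replicates 1 and 4, the scaling factor that edgeR's TMM method computed was under 0.85, down to 0.599.

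The members differed in level, and miR-125a-5p was the most abundant of them. By mean CPM over the 24 libraries, miR-125a-5p ranked 32nd among all miRNAs (7912 CPM), miR-99a-5p 42nd (5207 CPM), miR-125b-5p 52nd (3570 CPM), miR-99b-5p 70th (1911 CPM) and miR-100-5p 90th (658 CPM). These are read counts of molecules of 22 or 24 bases, and differences in capture between sequences were not measured. miR-125a-5p led in Control, S6h and S24h by median CPM, and miR-100-5p was last in all 4 groups. Within libraries, the lead of miR-125a-5p over miR-99a-5p was beyond its spread in S24h (mean log2 ratio 1.1 ± 0.72 SD) and not in Control (0.95 ± 1.19, seen in 4 of 6 mice) or S6h (0.88 ± 1.0, 5 of 6 mice). In S72h the first place was held by miR-99a-5p, but its lead over miR-125a-5p within libraries (mean log2 ratio 0.11 ± 1.08 SD, n = 6) was smaller than the spread and was seen in 3 of 6 mice. In S72h the following gaps were beyond the spread, with miR-125a-5p over miR-125b-5p (mean log2 ratio 0.63 ± 0.40) and miR-125b-5p over miR-99b-5p (0.81 ± 0.67) in 6 of 6 mice each. In Control, S6h and S24h, miR-125b-5p and miR-99a-5p could not be ordered, nor could miR-125b-5p and miR-99b-5p in S24h (0.17 ± 0.58, 3 of 6 mice). miR-125b-5p had a higher median than miR-99a-5p in Control, but within libraries it was ahead in only 2 of 6 mice (mean log2 ratio -0.30 ± 0.67). miR-99a-5p was ahead in 3 of 6 mice in S6h (0.21 ± 0.47) and in 4 of 6 in S24h (0.49 ± 0.81), and none of these ratios was larger than its SD. The gap between the last members, miR-99b-5p and miR-100-5p, was beyond the spread in Control, S24h and S72h (mean log2 ratios 1.35 ± 0.88, 2.52 ± 1.17 and 1.37 ± 0.47) and not in S6h (1.26 ± 1.36).

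miR-99a-5p was the most variable of the members among Control mice. Its lowest, median and highest CPM were 2637, 3172 and 10512 in Control, 2801, 5203 and 9665 in S6h, 1980, 3329 and 6477 in S24h and 2386, 6117 and 9500 in S72h. In Control, 4 mice lay between 2637 and 3297 CPM and the other two at 8980 and 10512 CPM, and the ranges of all 4 groups overlapped. The coefficient of variation in CPM was 67.6% in Control and 46.0 to 55.1% in the surgery groups.

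miR-100-5p, which differs from miR-99a-5p by a single base, was present at a lower level. It had 461, 657 and 1113 CPM (lowest, median, highest) in Control, 136, 793 and 1145 CPM in S6h, 60.0, 521 and 727 CPM in S24h and 469, 706 and 939 CPM in S72h. The low ends in S6h and S24h were single mice. They were S6h replicate 5 with 14 counts (136 CPM, 95% Clopper-Pearson interval 74.6 to 229) and S24h replicate 4 with 4 counts (60.0 CPM, 16.4 to 154), both below the next lowest of all libraries at 461 CPM (335 to 619). The ratio of miR-99a-5p to miR-100-5p within a library had group medians of 5.27 to 8.30 and reached 24.7 and 42.1 in S6h and S24h.

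miR-99b-5p, from the chromosome 17 cluster, had a lower coefficient of variation than miR-99a-5p in all 4 groups (22.7 to 40.2%). It had 684, 1908 and 2850 CPM (lowest, median, highest) in Control, 1258, 1439 and 2233 CPM in S6h, 1815, 2345 and 3281 CPM in S24h and 1146, 1880 and 2882 CPM in S72h. In S6h, 5 of 6 mice lay between 1258 and 1458 CPM, below every S24h mouse, and only replicate 5 reached into the S24h range.

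miR-125a-5p, encoded 692 bp or less from miR-99b-5p, had 4820, 8710 and 13723 CPM (lowest, median, highest) in Control, 5062, 10044 and 13251 CPM in S6h, 5296, 8399 and 9863 CPM in S24h and 2915, 5242 and 6103 CPM in S72h. All 6 S72h mice were below the medians of the other groups, while the ranges still overlapped. miR-125b-5p had 2189, 3641 and 5844 CPM in Control, 2864, 4816 and 7100 CPM in S6h, 1785, 2529 and 3929 CPM in S24h and 2085, 3358 and 4032 CPM in S72h. All 6 S24h mice were below the S6h median, again with overlapping ranges.

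**Figure D1:**
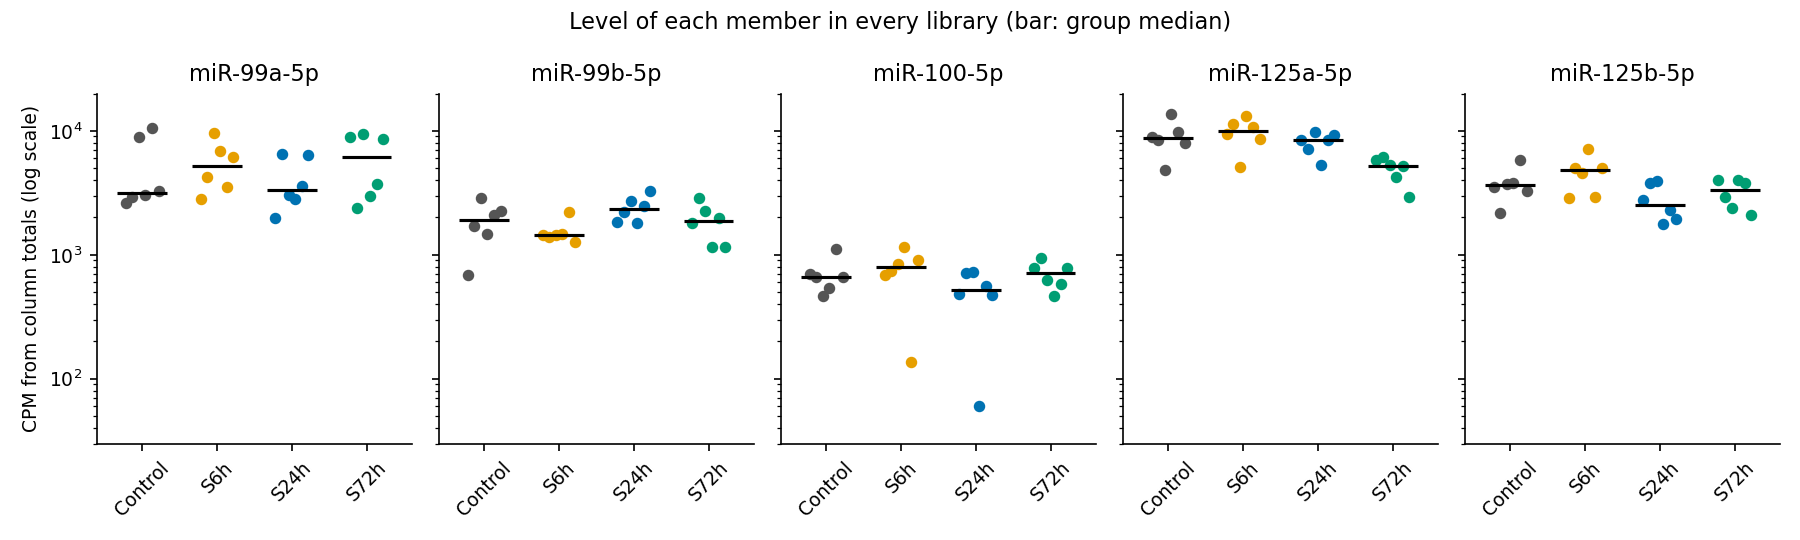
CPM from column totals (log axis) of each member in each of the 24 libraries, by group, with a bar at the group median. The ranges of all groups overlap for every member, miR-125a-5p is lowest in S72h (median 5242 CPM), and the 2 isolated points of miR-100-5p are S6h replicate 5 (136 CPM) and S24h replicate 4 (60.0 CPM).

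The first question was whether surgery changed these miRNAs against Control. The edgeR quasi-likelihood test was used, and a call required both a fold change of 1.5 or more in either direction and a Benjamini-Hochberg adjusted p below 0.05. The model was fitted to the 252 miRNAs that passed a filter on low counts. All 5 members passed it. At 6 h, 0 of 5 members were called, as were 0% of all miRNAs tested, and 0 of 5 had an unadjusted p under 0.05 against 3.57% of all miRNAs. The log2 fold changes lay between -0.18 for miR-99b-5p and 0.39 for miR-125b-5p, with standard errors of 0.28 to 0.43 and an adjusted p of 0.991 for each.

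At 24 h, 0 of 5 members were called against 11.9% of all miRNAs tested, and 0 of 5 had an unadjusted p under 0.05 against 29.4%. The mTOR regulators miR-99a-5p and miR-100-5p had log2 fold changes of -0.52 ± 0.40 (SE) and -0.62 ± 0.44. The values were -0.34 ± 0.29 for miR-125a-5p, -0.61 ± 0.33 for miR-125b-5p (the smallest adjusted p in this comparison, 0.202, in edgeR) and 0.23 ± 0.28 for miR-99b-5p. The median over the members was -0.52, beside -0.21 over all miRNAs tested. Part of such a value depends on the scaling between libraries, which moved the median of all miRNAs from -0.23 to 0.08 in this comparison over 6 scalings. Relative to that median, miR-125b-5p stayed between -0.43 and -0.36, miR-100-5p between -0.46 and -0.38 and miR-99b-5p between 0.41 and 0.48.

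At 72 h, 0 of 5 members were called against 3.57% of all miRNAs tested. miR-125a-5p was lower than the Control median in 6 of 6 mice, with a log2 fold change of -0.78 ± 0.29 (SE), and did not pass the adjustment (edgeR adjusted p = 0.138, unadjusted p under 0.05 as for 19% of all miRNAs). With DESeq2 it was called (log2 fold change -0.80, adjusted p = 0.0497), as were 10.7% of the 252 miRNAs, of which DESeq2 gave 115 an adjusted p. The other 4 members had log2 fold changes between -0.05 for miR-125b-5p, which changed sign in 3 of 17 other settings, and 0.29 for miR-99a-5p. Leaving out single libraries moved the value of miR-125a-5p between -0.57 without Control replicate 4 and -0.91 without Control replicate 3, and its adjusted p between 0.0703 and 0.334.

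**Figure D2:**
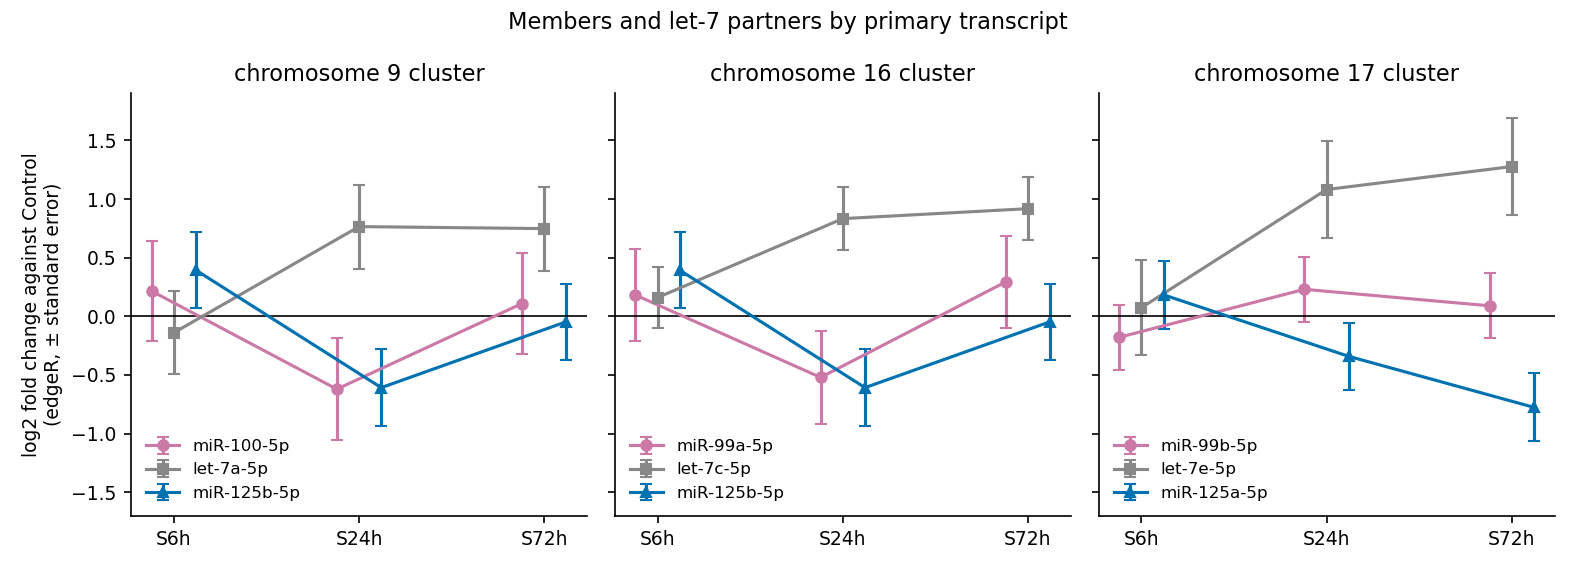
log2 fold change against Control (edgeR, error bars are standard errors) at 6, 24 and 72 h for the members and let-7 partners, with 1 panel for each gene cluster; miR-125b-5p is drawn in both clusters that encode it. All values share the same 6 Control libraries. The let-7 partners lie at 0.75 to 1.28 at 24 and 72 h, above the members of their cluster in every panel.

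The surgery groups were also compared with each other, to follow the members over time. Between S6h and the later groups, time, daily analgesia and any difference between batches of mice cannot be told apart. Between S24h and S6h, 1 of 5 members was called, against 20.2% of all miRNAs tested (13.9% lower). It was miR-125b-5p, the TNF regulator, with 2462 ± 787 TMM scaled CPM in S24h and 4925 ± 2102 in S6h (SD, n = 6 mice each; log2 fold change -1.0 ± 0.33 SE, edgeR adjusted p = 0.0324, lower than the S6h median in 6 of 6 mice). An unadjusted p under 0.05 was found for this member only, and for 29% of all miRNAs. The other values were -0.84 ± 0.43 for miR-100-5p, -0.70 ± 0.40 for miR-99a-5p, -0.52 ± 0.29 for miR-125a-5p and 0.41 ± 0.28 for miR-99b-5p, none of them called. All 6 S24h mice were below the S6h median for miR-100-5p and miR-125a-5p and above it for miR-99b-5p. The median over the members was -0.70, beside -0.23 over all miRNAs tested, a background that other scalings moved up to 0.10. Relative to the background, miR-125b-5p was lower by a similar amount under all 6 scalings (-0.81 to -0.74).

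The call of miR-125b-5p was not stable. DESeq2 called 23.4% of all miRNAs here, or 37.1% of the 159 to which it gave an adjusted p. For miR-125b-5p it gave -0.72 with an adjusted p of 0.0859. The RLE, TMMwsp and upper quartile scalings in edgeR gave -0.72, -0.84 and -0.71 with adjusted p of 0.131, 0.0701 and 0.148. By contrast, limma voom called miR-125b-5p (-1.0, adjusted p = 0.0269). The call was lost in 6 of 12 fits that left out 1 library. The value without S6h replicate 4, the deepest library, was -0.77 (edgeR adjusted p = 0.124). Without S6h replicate 6 it was -0.97 (0.0608), and without S24h replicates 1, 4, 5 or 6 it was -1.01 (0.0517), -0.92 (0.07), -0.96 (0.0637) or -0.87 (0.0774). The skeletal muscle list (5 miRNAs, all with counts) moved in the same direction, with 6.02 to 26.5% of counts in S6h and 1.57 to 4.36% in S24h, so that these ranges did not overlap. Its defining marker miR-1a-3p ran from 49530 to 230400 CPM in S6h and from 9690 to 29295 CPM in S24h. The red cell list had a median of 15.4% in S6h and 8.96% in S24h, and depth differed too, with a median total of 177467.5 in S6h and 75030 in S24h. The part of these lists and of depth in the result was not tested. The call was also lost when the dominant miR-122-5p and miR-1a-3p were taken out of the table (-0.78, adjusted p = 0.0869) and without the 3 libraries of low scaling factor (-0.79, adjusted p = 0.0733), settings chosen after the data were seen.

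Between S72h and S24h, 0 of 5 members were called against 0.397% of all miRNAs tested. The log2 fold changes were 0.81 ± 0.40 (SE) for miR-99a-5p, 0.73 ± 0.44 for miR-100-5p and 0.56 ± 0.33 for miR-125b-5p. They were -0.43 ± 0.29 for miR-125a-5p and -0.14 ± 0.28 for miR-99b-5p. Over 17 other settings, the value of miR-125b-5p ran from 0.0052 to 0.56. miR-99a-5p had an unadjusted p under 0.05, as did 11.5% of all miRNAs, and an edgeR adjusted p of 0.431.

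Between S72h and S6h, 1 of 5 members was called, against 9.92% of all miRNAs tested (5.56% lower). It was miR-125a-5p, with 5324 ± 1702 TMM scaled CPM in S72h and 10348 ± 3634 in S6h (SD, n = 6 mice each; log2 fold change -0.96 ± 0.29 SE, edgeR adjusted p = 0.0283, lower than the S6h median in 6 of 6 mice). It was also the only member with an unadjusted p under 0.05, as 21% of all miRNAs had. Relative to the median of all miRNAs it stayed between -1.02 and -0.98 under 6 scalings. miR-125b-5p, which shares the seed, had -0.44 ± 0.32, and the miR-99/100 members lay between -0.11 and 0.27, with miR-100-5p changing sign in 5 of 17 other settings and miR-99a-5p in 1 of 17.

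DESeq2 called 14.3% of all miRNAs between S72h and S6h, or 18.2% of the 198 to which it gave an adjusted p. The call of miR-125a-5p was kept with DESeq2 (-0.86, adjusted p = 0.0403) and limma voom (-0.97, adjusted p = 0.0218). It was lost in edgeR with the RLE, TMMwsp and upper quartile scalings (-0.86, -0.87 and -0.81 with adjusted p of 0.0646, 0.0624 and 0.115) and with no filter on low counts (-0.85, adjusted p = 0.168). Leaving out 1 library lost it in 7 of 12 fits. The value was -0.92 without S6h replicate 2 (edgeR adjusted p = 0.0562), -0.79 without S6h replicate 4 (0.108) and -0.95 without S6h replicate 5 (0.0563). It was -0.98 (0.0518), -0.91 (0.065), -0.93 (0.0699) and -0.83 (0.0628) without S72h replicates 2, 3, 5 and 6. It was larger (-1.10, adjusted p = 0.00898) without S6h replicate 3, the S6h mouse with the lowest miR-125a-5p. The muscle list held 0.644 to 23.7% of counts in S72h (median 2.78%) and a median of 11.8% in S6h, and the red cell list medians of 8.99 and 15.4%. Median totals were 94427.5 and 177467.5 counts. The part of these in the result was not tested.

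**Figure D3:**
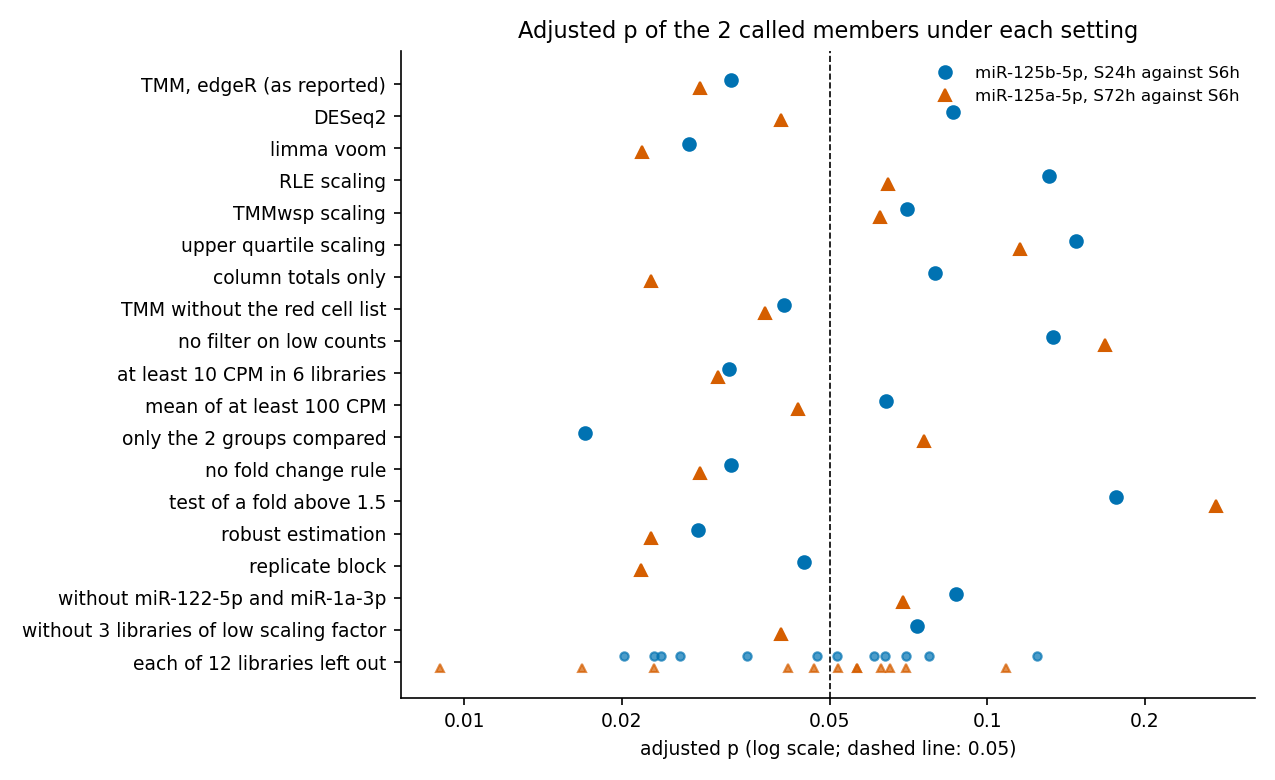
Adjusted p (log axis, dashed line at 0.05) of miR-125b-5p between S24h and S6h and of miR-125a-5p between S72h and S6h under each test, scaling, filter and model, and with each of 12 libraries left out. Points fall on both sides of the line for both members, from 0.017 to 0.176 for miR-125b-5p and from 0.00898 to 0.273 for miR-125a-5p.

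Across the 6 comparisons, no member had CPM ranges that did not overlap between the groups, which was the case for 0% of all miRNAs tested at 6 h, 4.76% at 24 h and 1.19% at 72 h against Control, for 10.3% between S24h and S6h, 0% between S72h and S24h and 1.59% between S72h and S6h.

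Members of 1 cluster are cut from the same primary transcript, and their let-7 partners were examined for that reason. let-7 miRNAs repress growth and proliferation genes, including Ras and Hmga2. At 24 h the log2 fold changes against Control were 0.77 ± 0.36 (SE) for let-7a-5p, 0.83 ± 0.27 for let-7c-5p and 1.08 ± 0.41 for let-7e-5p, where all 6 S24h mice lay above the Control median for each of them. let-7c-5p was called (edgeR adjusted p = 0.0329) and the others were not (0.147 and 0.0662). At 72 h the values were 0.75, 0.92 and 1.28, with 4, 6 and 6 of 6 mice above the Control median, again with a call for let-7c-5p only (0.0462, beside 0.252 and 0.0643 in edgeR). let-7e-5p was called in 9 of 17 other settings at 24 h and in 5 of 17 at 72 h. Among them was DESeq2 at both times (1.27 and 1.34, adjusted p = 0.0258 and 0.0218). DESeq2 called 19.8 and 10.7% of all miRNAs at these times, and at 72 h 23.5% of those with an adjusted p. The call of let-7c-5p at 24 h was lost without Control replicate 3, 5 or 6 or S24h replicate 1, 3, 4 or 5 (adjusted p 0.0512 to 0.069), and at 72 h when any 1 of the 12 libraries other than S72h replicate 6 was left out (0.0616 to 0.108). It was also lost in 2 of 17 other settings at 24 h and in 9 of 17 at 72 h. Beside these values, the red cell list held a median of 17.7% of counts in Control, 8.96% in S24h and 8.99% in S72h, and the liver list 7.66, 1.96 and 1.2%, and their part was not tested. let-7a-5p and let-7c-5p differ by 1 base (A19G), and both can also arise from gene copies outside these clusters. Of the 6 other let-7 family members tested, 1 was called higher at 24 h and 1 at 72 h, as was 1 of the 3 partners at each time, against 3.97 and 1.98% of all miRNAs tested (11.9 and 3.57% called in either direction).

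The opposite (3p) arms of the same hairpins were scarce. miR-99a-3p, miR-100-3p and let-7a-2-3p had 0 counts in the 24 libraries. Of the 9 opposite arms, miR-99b-3p, miR-125a-3p and miR-125b-2-3p passed the filter and were not called in any comparison, with at most 28, 35 and 35 counts in a library. miR-351-5p, with the miR-125 seed, was present at a mean of 222 CPM. It had log2 fold changes of 0.70 ± 0.63 (SE) at 24 h and 0.82 ± 0.63 at 72 h against Control and was not called in any comparison. The values of the miR-125 members at these times lay between -0.78 and -0.05.

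The ratio of 2 members within a library does not depend on the scaling between libraries. In the chromosome 17 cluster, the count of miR-99b-5p relative to miR-125a-5p had its lowest group median in S6h and its highest in S72h. The lowest, median and highest ratios were 0.0762, 0.21 and 0.592 in Control, 0.11, 0.15 and 0.284 in S6h, 0.221, 0.303 and 0.354 in S24h and 0.269, 0.388 and 0.473 in S72h. All 6 mice of S24h and of S72h lay above the medians of Control and of S6h. On the log2 scale the ratio was higher by 0.87 in S24h than in S6h (exact two-sided permutation test, p = 0.00649, adjusted p = 0.052 over 24 tests, n = 6 per group) and by 1.19 in S72h than in S6h (exact permutation test, p = 0.00433, same adjusted p). Neither passed the threshold after adjustment. In fits that left out 1 library, each passed in 1 of 12, without S6h replicate 3 (1.03 and 1.35, adjusted p = 0.026 in the exact permutation test), with adjusted p of up to 0.104 and 0.0779 in the others. Against Control, S72h was higher by 0.90 (exact permutation test, p = 0.0779, adjusted p = 0.214), and leaving out 1 library gave 0.63 to 1.22 with adjusted p of 0.039 to 0.338, where only the fit without Control replicate 3, the Control mouse with the highest ratio, passed.

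Between the miRNAs with the miR-125 seed, the ratio of miR-125a-5p to miR-125b-5p had medians of 2.48 in Control, 2.05 in S6h, 2.99 in S24h and 1.43 in S72h. It was lower in S72h than the S24h median in 6 of 6 mice (difference of log2 ratios -0.96; exact permutation test, p = 0.00649, adjusted p = 0.052), which did not pass the adjustment. The ratio of miR-99a-5p to miR-100-5p differed by at most 0.45 on the log2 scale between groups (exact permutation tests, adjusted p 0.756 to 0.894), with SDs of 0.88 to 1.27 within groups. Leaving out 1 library moved the largest difference, S24h against Control, between 0.0049 and 0.76. The ratio of miR-99b-5p to let-7e-5p had medians of 1.42 in Control, 1.29 in S6h, 0.798 in S24h and 0.658 in S72h. The difference between S72h and Control was -1.13 (exact permutation test, p = 0.0346, adjusted p = 0.208). For miR-125a-5p to let-7e-5p, a ratio added after the data were seen and given without a test, the medians were 6.65 in Control, 8.06 in S6h, 2.55 in S24h and 1.68 in S72h.

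**Figure D4:**
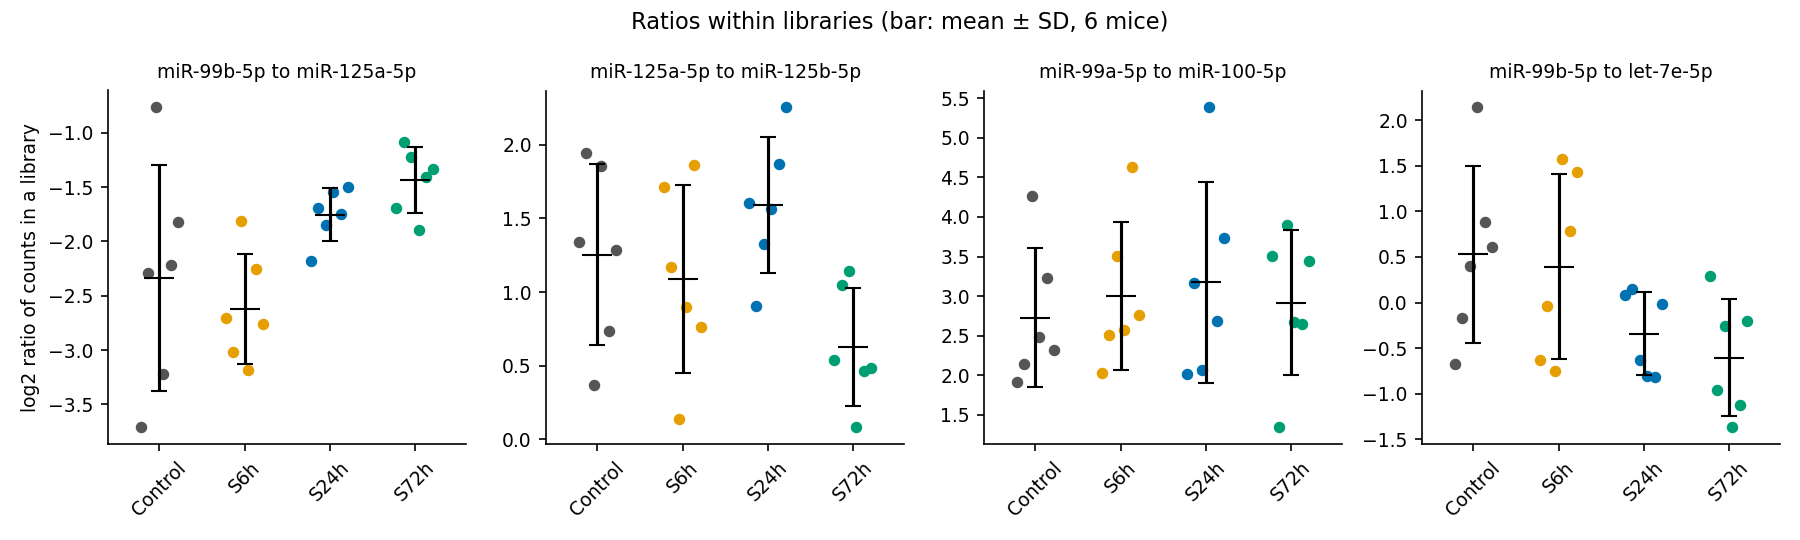
log2 ratio of the counts of 2 miRNAs within each library, by group, with bars at the mean and SD of 6 mice. In the first panel (miR-99b-5p to miR-125a-5p) the S24h and S72h mice lie above the S6h mean of -2.62, and in the second (miR-125a-5p to miR-125b-5p) the S72h mean is 0.63, and the S72h mice overlap with those of every other group.

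How far the members varied together among mice was examined over the 24 libraries. miR-100-5p and miR-125b-5p, which share the chromosome 9 cluster, had a Pearson's r of 0.597 and a Spearman's rho of 0.704 (permutation test, adjusted p = 0.012 and 0.0021 over 10 pairs). The relation was also present after the group means were removed (r = 0.534, rho = 0.637, permutation test, adjusted p = 0.0404 and 0.007). Without the 2 libraries farthest from the median of miR-100-5p, r was 0.739 with the group means kept. For every pair, the farthest libraries were chosen by the first-named member alone. For miR-125a-5p and miR-125b-5p, which share a seed and not a gene cluster, r was 0.498 and rho 0.428 (permutation test, adjusted p = 0.0659 and 0.126), and r fell to 0.298 without the 2 farthest libraries. Within groups the rank correlation of this pair passed the adjustment (rho = 0.587, permutation test, adjusted p = 0.0393) and r did not (0.495, adjusted p = 0.141). miR-99b-5p and miR-125a-5p from the compact chromosome 17 cluster had an r of -0.06 and a rho of -0.21 (permutation test, adjusted p = 0.867 and 0.447). The sign of this pair changed when the group means were removed (r = 0.113, rho = 0.256, permutation test, adjusted p = 0.722 and 0.414), where r was 0.505 without the 2 farthest libraries, beside 0.579 for miR-100-5p and miR-125b-5p. miR-99a-5p and miR-125b-5p, which share the chromosome 16 cluster, had an r of 0.398 and a rho of 0.439 (permutation test, adjusted p = 0.175 and 0.126), and without the 2 farthest libraries r was 0.31. With group means removed, r was 0.297 and rho 0.351 (permutation test, adjusted p = 0.423 and 0.264). The remaining 6 pairs did not pass the adjustment either, with r between -0.23 and 0.37. All these values share the library totals and scaling factors.

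**Figure D5:**
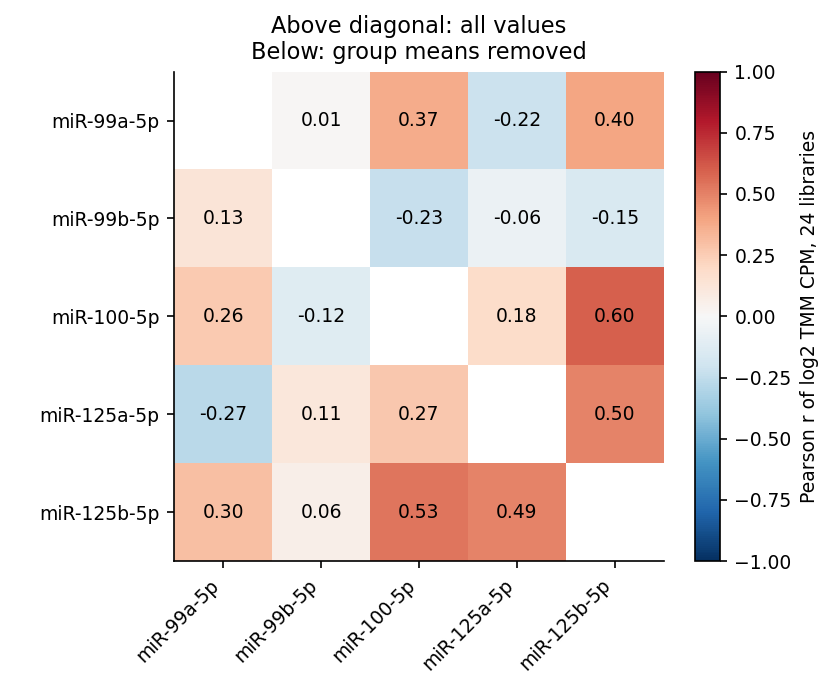
Pearson's r of log2 TMM scaled CPM between members over 24 libraries, above the diagonal with all values and below it with group means removed. The pair of miR-100-5p and miR-125b-5p has the highest values (0.597 and 0.534), and miR-99b-5p has none above 0.129 with another member.

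Most of the miRNAs whose levels ran closest to a member over the 24 libraries were not members. The following are descriptions over libraries that share their scaling. For miR-99a-5p they were miR-127-3p (r = 0.754) and the muscle miRNA miR-133a-3p (r = 0.688), and for miR-125b-5p the muscle miRNA miR-1a-3p (r = 0.702) and miR-30a-5p (r = 0.673). miR-125a-5p ran closest to let-7d-3p (r = 0.891) and miR-10a-5p (r = 0.831), the highest values for any member. miR-100-5p ran closest to miR-28a-5p (r = 0.738), with miR-125b-5p in the 2nd place of 251 and miR-101a-3p next (r = 0.575). miR-99b-5p ran closest to miR-196b-5p (r = 0.531) and miR-181c-5p (r = 0.516). let-7e-5p, its cluster partner, was in the 6th place of 251 for miR-99b-5p (r = 0.418) and in the 239th for miR-125a-5p (r = -0.52).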

How the data were processed

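Small RNA from serum EVs of 24 mice was sequenced, and the deposited counts of reads per mature miRNA were used. Per the labels and the study's methods, cutadapt removed the adapters, Bowtie placed the reads on GRCm38 (mm10), reads of 20 to 24 bases were kept with SAMtools, and featureCounts assigned them to miRBase entries. The authors deposited these counts without normalization. Only reads of this length enter the totals. Groups came from the sample labels. The 5 members, the gene lists and the tests were chosen with earlier results of these data known.

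A miRNA was tested with at least 10 CPM in at least 12 of 24 libraries (252 of 1966). Analyses used R 4.3.3 with edgeR 4.0.16 (TMM scaling, 1 quasi-likelihood model of 4 groups, Benjamini-Hochberg adjustment over 252 miRNAs), limma 3.58.1, DESeq2 1.42.0 (the authors used DESeq2 in another version) and Python 3.11.15. Ratios within libraries used log2 of counts plus 0.5 and exact two-sided permutation tests over 924 assignments of mice, adjusted over 24 tests. Correlations used log2 CPM with a prior count of 4 and 100000 permutations.

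Named miRNAs were the members, their let-7 partners and opposite arms, miR-351-5p, and, for each member, the 2 tested miRNAs outside the members most correlated with it. Marker lists were red cell, platelet, skeletal muscle, liver and brain miRNAs; the brain list held 0.419 to 1.78% of counts. No 2 libraries were identical. Alternatives concerned the test, scaling, filter, libraries in the model, call rule, dispersion, replicate block, pseudocount and each library left out.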

Additional observations from a re-analysis of the deposited data

Results flagged for a closer look

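The CPM of miR-99b-5p in S6h replicate 5 stood apart from the other 5 S6h mice, with a gap of 0.794 of the group's range, past Dixon's critical value for 6 samples. The CPM of miR-100-5p in Control replicate 5 stood apart in the same way, with a gap of 0.641 of the range. The check covered 36 sets of 6 libraries, in which chance alone gives about 1 in 20, or 1.8.

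miR-125b-5p differed between 24 and 6 h after surgery by a log2 fold change of -1.0, and miR-125a-5p between 72 and 6 h by -0.96, both in edgeR's test of the difference between these times. Of all miRNAs tested, 20.2 and 9.92% were called in these comparisons. Neither call was kept under all settings.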

How the results depend on the processing

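Neither of the 2 calls among the members was kept under all settings, while their direction was the same in all 17 other settings and all fits that left out 1 library. Between S24h and S6h, the number of members called was 0 instead of 1 with DESeq2, with RLE, TMMwsp and upper quartile scaling, with column totals only, with no filter on low counts, with a mean of at least 100 CPM, with a test of a fold above 1.5 and in both settings added after the data were seen (with the dominant miR-122-5p and miR-1a-3p taken out of the table, and without the 3 libraries of low scaling factor). Between S72h and S6h it was 0 instead of 1 with RLE, TMMwsp and upper quartile scaling, with no filter, with only the 2 groups compared, with a test of a fold above 1.5 and with those miRNAs taken out. It was 1 instead of 0 between S72h and Control with DESeq2. The cause was not tested. Leaving out each library gave 0 to 1 in both comparisons, and it moved the difference in the log2 ratio of miR-99b-5p to miR-125a-5p from 0.63 to 1.22 between S72h and Control, from 0.76 to 1.03 between S24h and S6h and from 1.08 to 1.35 between S72h and S6h. With the replicate number as a block, the number of members called stayed at 1 in both comparisons (edgeR adjusted p = 0.0447 for miR-125b-5p and 0.0218 for miR-125a-5p). The correlation of deviations between same-numbered libraries had a median of -0.00201, with 9 of 36 pairs over 0.1. Between libraries of different number the median was -0.0012, with 27 of 180 pairs over 0.1. Whether same-numbered libraries were handled together cannot be told from these values. Over all miRNAs, the count of calls ranged from 11 to 50 at 24 h against Control (30 as reported), from 0 to 27 at 72 h (9), from 0 to 2 at 6 h (0), from 23 to 66 between S24h and S6h (51), from 0 to 10 between S72h and S24h (1) and from 2 to 38 between S72h and S6h (25). DESeq2 gave no adjusted p for 284 values over the 6 comparisons, and these entered no count. Among the 5 members, miR-100-5p had the fewest counts, with 4 in 1 library.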
